A study of Mus musculus with 24 samples.

Results

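The 7 genes Prdm1, Xbp1, Ell2, Cebpb, Sdc1, Mzb1 and Creb3l2, which belong to the transcriptional and secretory programme of plasma cells, were followed in mouse B cells that lacked PU.1, SpiB or both. They were chosen by name, and all 7 had an entry among the 27179 genes of the count tables and passed the filter on low counts at every stage. RNA-seq had been performed on 24 libraries, a pair of biological replicates for every combination of 4 genotypes and 3 stages. All mice were on the C57BL/6 background and were between 6 and 20 weeks old. Control mice carried the Cd23-Cre transgene and no floxed allele (Cd23 T/+), PU.1 cKO mice also had floxed Spi1 on both chromosomes (Spi1 fl/fl Cd23 T/+), mice of the SpiB KO group were Spi1 fl/fl Cd23 +/+ Spib-/- and so carried no Cre, and PU.1 SpiB DKO mice (DKO below) were Spi1 fl/fl Cd23 T/+ Spib-/-. The transgene is a bacterial artificial chromosome that is active from the transitional B cell stage, so PU.1 was deleted in maturing B cells whereas SpiB was absent from every cell of the animal. Lymph node B cells were taken without culture (naive) or after 48 h with CD40L (50 ng/ml) and IL-4 (10 ng/ml), or with LPS (20 µg/ml) and IL-4 (10 ng/ml). They had been sorted as CD3- B220+ CD138-. CD138 is the protein that Sdc1 encodes, so cells with that protein on their surface had been removed before RNA was made.

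A plasma cell forms when an activated B cell extinguishes its B cell programme and expands its secretory apparatus. Prdm1 encodes Blimp-1, the repressor that shuts down B cell identity, and Xbp1 encodes the factor of the unfolded protein response that enlarges the endoplasmic reticulum. Ell2 is a transcription elongation factor that favours the secretory form of the immunoglobulin heavy chain messenger, and Cebpb is a basic leucine zipper factor with roles in proliferation and inflammation. Mzb1 is a co-chaperone of the endoplasmic reticulum in antibody-secreting cells, Creb3l2 is a transcription factor that is released from that membrane under stress, and Sdc1 is the heparan sulphate proteoglycan used as the surface marker of plasma cells. PU.1 (gene Spi1) and SpiB (gene Spib) are Ets family factors that bind the same DNA element, the PU-box. Counts per gene do not show the splicing of Xbp1 or the choice of heavy chain form.

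The core of the PU-box is GAGGAA, and the stretches before the start sites of the members were read for it. RefSeq promoters (build GRCm38.p6, the build of the counts) were at hand for 6 of the 7 members, from 250 bases before to 50 bases after the start site. The core was present, on either strand, in 2 of these 6, Prdm1 and Sdc1, and in 28.3% of all 32851 promoters of the same length. The sequences of these 2, the main regulator and the surface marker of the programme, are shown over the 250 bases before the start (Prdm1 chr10:44458749-44458998, minus strand; Sdc1 chr12:8771146-8771395, plus strand), 5′ to 3′ on the strand of the gene, with the core in capitals. The Prdm1 start used by RefSeq's table lies inside the annotated gene (chr10:44437174-44528558).
Prdm1: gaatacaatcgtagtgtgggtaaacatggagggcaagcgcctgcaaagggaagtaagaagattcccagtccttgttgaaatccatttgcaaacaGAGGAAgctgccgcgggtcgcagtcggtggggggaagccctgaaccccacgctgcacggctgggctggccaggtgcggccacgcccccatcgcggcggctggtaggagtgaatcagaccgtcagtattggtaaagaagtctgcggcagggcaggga
Sdc1: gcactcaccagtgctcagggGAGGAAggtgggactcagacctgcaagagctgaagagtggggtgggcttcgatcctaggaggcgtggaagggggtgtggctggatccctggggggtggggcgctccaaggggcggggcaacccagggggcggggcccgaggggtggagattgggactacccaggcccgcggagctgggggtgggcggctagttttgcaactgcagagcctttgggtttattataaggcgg
Counted from the start site, the core began at position −156 of Prdm1 and −230 of Sdc1. An Ets-IRF composite element (GGAANNGAA, in 8.24% of all promoters), the XBP1 element (TGACGTGG, 0.676%) and the Blimp-1 element (GAAAGTGAA, 0.581%) were searched on both strands and matched none of the 6. The pattern TTGCNNCAA (2.08%) matched none either, but it is no canonical C/EBP site, so C/EBP sites were not searched. A match describes letters in a short window and no binding. The spans of the other genes are chr11:5520641-5525993 (Xbp1), chr13:75707484-75772361 (Ell2), chr2:167688915-167690432 (Cebpb), chr12:8771396-8793716 (Sdc1) and chr6:37327255-37442276 (Creb3l2). The spans of Ell2 and Creb3l2 overlap another annotated gene each, so reads in the overlap may be divided between them.

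Total counts were 14231188 to 18194629 in naive libraries, 9598674 to 61640683 with CD40L + IL-4 and 22757630 to 73658850 with LPS + IL-4. Levels are TMM-scaled counts relative to library totals (CPM), and differences are log2 fold changes with their standard error (SE). Spib was at 85.4 to 91.3 CPM in naive SpiB KO and 104 to 107 in naive DKO libraries against 1416 to 1601 in control, and was called lower in both genotypes at every stage. Spi1 was called lower in PU.1 cKO cells at every stage and in DKO cells that were naive or had CD40L + IL-4, but not in DKO cells with LPS + IL-4 (54.8 to 58.8 CPM against 60 to 69.1 in control). Whole-gene counts include the Spi1 exons outside the deleted one, so they check that deletion only weakly. By read coverage the paper reports the floxed Spi1 exon as completely excised with CD40L + IL-4, and a similarly high deletion with LPS + IL-4. In naive cells it reports complete inactivation in PU.1 cKO cells, but marked retention of that exon in DKO cells. A gene was called when its adjusted p from edgeR's quasi-likelihood test was under 0.15 and its fold change over 1.5, the rate of false discoveries and the fold in the study's methods. The figures of the study also set a minimum log2 RPKM, which naive Prdm1 did not reach.

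The members did not move together when control cells were activated. Prdm1 was at 1.07 and 1.64 CPM in the naive libraries, at 8.05 and 8.92 with CD40L + IL-4 and at 21.6 and 18.3 with LPS + IL-4, with no overlap between stages. It rose by 2.64 (SE 0.25, edgeR adjusted p = 4.89e-08) with CD40L + IL-4 and by 3.87 (SE 0.23, edgeR adjusted p = 3.3e-11) with LPS + IL-4. Xbp1 and Ell2 rose too, by 2.04 (SE 0.15) and 1.57 (SE 0.17) with CD40L + IL-4 and by 0.77 (SE 0.15) and 1.0 (SE 0.17) with LPS + IL-4. Cebpb and Sdc1 went down in both cultures. Cebpb changed by −1.42 (SE 0.23) and −1.42 (SE 0.21), and Sdc1 by −1.91 (SE 0.23) and −0.99 (SE 0.20). Mzb1 was called in neither culture, and Creb3l2 fell with LPS + IL-4 only (−0.91, SE 0.25). Of the 7 members, 5 were called between CD40L + IL-4 and naive cells (3 higher, 2 lower), 6 between LPS + IL-4 and naive cells (3 higher, 3 lower) and 4 between the cultures (2 higher and 2 lower with LPS + IL-4). Of all genes tested, 48.8%, 63.9% and 41.2% were called in these comparisons. Those called higher were 25.4%, 32.6% and 20.3% of the genes tested, and those called lower 23.4%, 31.3% and 20.9%. The CD40L + IL-4 counts were deposited apart from those of the naive and LPS + IL-4 libraries. The labels name no run or batch, and in these stage differences the part of library making cannot be told apart from that of stage. Without naive control replicate 1 the Sdc1 value with LPS + IL-4 was −0.57, under the fold threshold.

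Per length of gene, on the deposited scale of log2 RPKM, which scales reads to gene length and library size, Mzb1 and Xbp1 held the 2 highest levels of the 7 in all 12 groups. In naive control cells the order was Mzb1 (8.65), Xbp1 (6.79), Cebpb (3.44), Ell2 (3.16), Sdc1 (2.36), Creb3l2 (1.19) and Prdm1 (−1.71). In DKO cells with LPS + IL-4 it was Mzb1 (10.05), Xbp1 (9.23), Ell2 (6.82), Prdm1 (3.58), Cebpb (2.98), Creb3l2 (1.80) and Sdc1 (1.29). Prdm1 was the lowest of the members in naive control cells, and Sdc1 the lowest in activated DKO cells with LPS + IL-4. On this scale the LPS + IL-4 files list another set of genes than the others, so levels are compared within a stage.

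**Figure D1:**
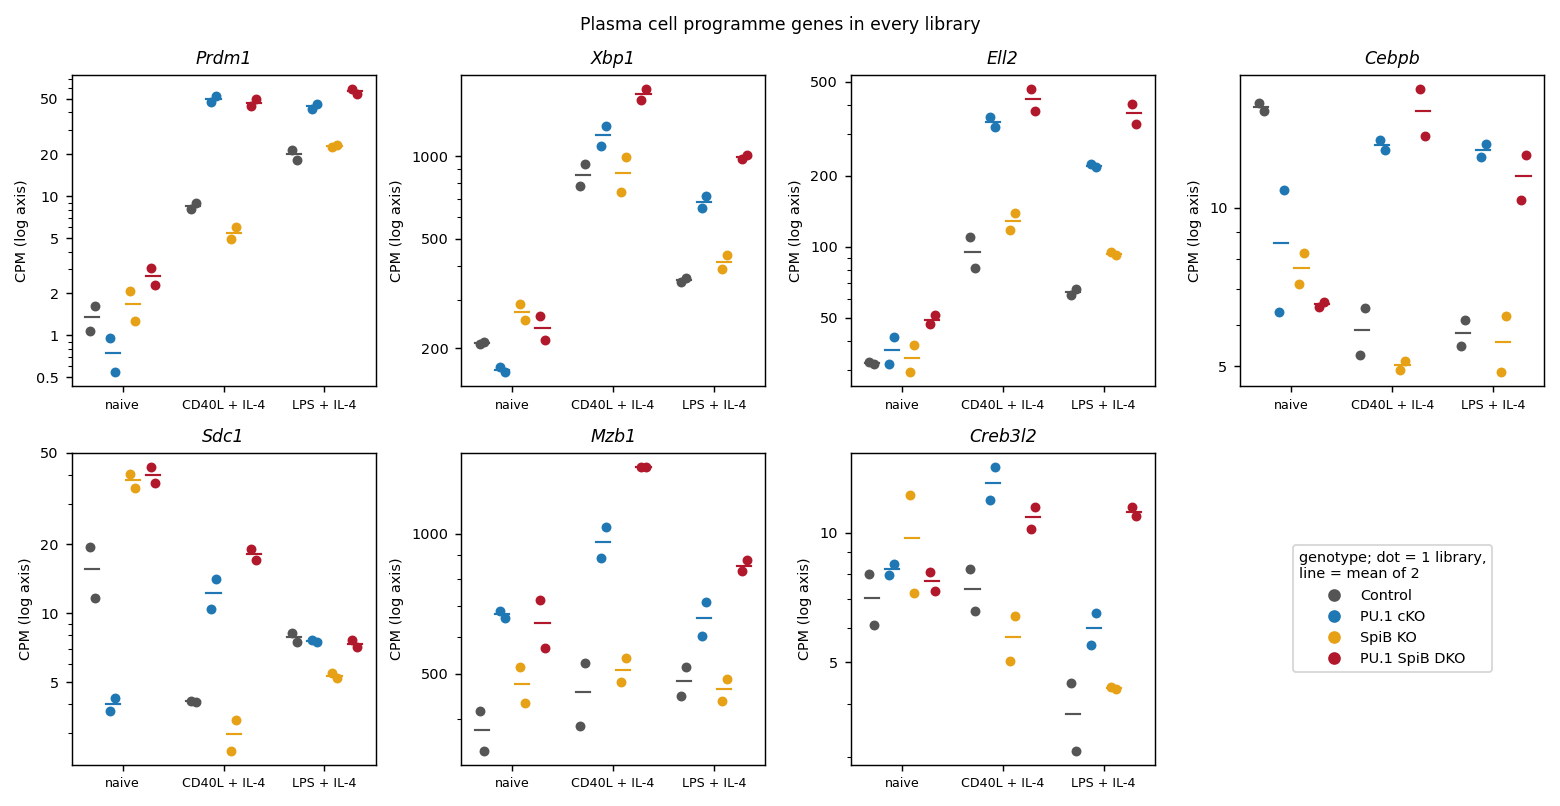
Level of each of the 7 genes in all 24 libraries, in CPM on a log axis, by stage and genotype, with 1 dot for each library and a line at the mean of 2. With LPS + IL-4 both DKO libraries lie above every other genotype for Prdm1, Xbp1, Ell2, Mzb1 and Creb3l2, whereas for Sdc1 they overlap control.

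With LPS + IL-4 most members were higher in cells that lacked PU.1 and several were higher again in cells that lacked both factors. In DKO cells 6 of 7 rose against control and none fell, where 20.2% of all genes tested were called, 13.7% higher and 6.52% lower. In PU.1 cKO cells 5 rose and none fell (10.5% of all genes, 6.68% higher and 3.85% lower). In SpiB KO cells no member was called (3.19% of all genes, 2.25% higher and 0.94% lower), 3 of the 7 had an unadjusted p under 0.05 and DESeq2 called none. The median fold change of the members on the log2 scale was 1.56 in DKO cells, 0.97 with PU.1 lost and 0.20 with SpiB lost, beside 0.01, 0.00 and 0.00 for all genes tested. The 12 T cell markers summed higher in DKO cultures (349 to 366 against 146 to 165 CPM in control with CD40L + IL-4, 258 to 267 against 69.1 to 75.8 with LPS + IL-4), carried by Thy1, Lck and Cd2, with Cd3e at 0.295 CPM or less in every culture. Their part in the values of the members was not tested.

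Ell2 had the largest differences from control in PU.1 cKO and DKO cells. Control libraries had 62.2 and 66.3 CPM of Ell2, PU.1 cKO libraries 224 and 217, SpiB KO libraries 95.1 and 92 and DKO libraries 404 and 331. The 4 genotypes did not overlap. Against control it rose by 1.80 (SE 0.10, edgeR adjusted p = 1.26e-05) in PU.1 cKO cells and by 2.59 (SE 0.11, adjusted p = 7.87e-07) in DKO cells, while the SpiB KO value of 0.55 (SE 0.10, adjusted p = 0.0266) was under the fold threshold. DKO cells exceeded PU.1 cKO cells by 0.79 (SE 0.10, adjusted p = 0.00163).

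For the regulator Prdm1, control libraries had 21.6 and 18.3 CPM of Prdm1, PU.1 cKO libraries 42.5 and 45.8, SpiB KO libraries 22.5 and 23.3 and DKO libraries 59.2 and 54.1. The PU.1 cKO libraries lay above control and SpiB KO and below DKO, with no overlap. The rises were 1.17 (SE 0.12, edgeR adjusted p = 0.000241) and 1.58 (SE 0.12, adjusted p = 1.82e-05), and the step from PU.1 cKO to DKO of 0.41 (SE 0.11, adjusted p = 0.0321) was under the fold threshold.

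The order was the same for Xbp1. Xbp1 stood at 350.1 and 359 CPM in control libraries, at 649 and 719 without PU.1, at 390.4 and 436 without SpiB and at 975 and 1011 without both. It rose by 0.97 (SE 0.09) in PU.1 cKO and by 1.56 (SE 0.09) in DKO cells, and DKO cells exceeded PU.1 cKO cells by 0.59 (SE 0.09, edgeR adjusted p = 0.00362). That step lay at the fold threshold and the call was lost without PU.1 cKO replicate 1 (0.50) and without DKO replicate 2 (0.55). It was also lost with no filter on low counts (0.57) and with all 24 libraries in the fit (0.54).

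Creb3l2 was a low gene with a clear DKO group. The Creb3l2 level was 4.48 and 3.11 CPM with both factors, 5.48 and 6.49 in libraries of PU.1 cKO cells, 4.38 and 4.32 with SpiB KO alone and 11.5 and 10.9 with DKO. It rose in DKO cells by 1.66 (SE 0.20, edgeR adjusted p = 0.000292) and stood 0.96 (SE 0.19, adjusted p = 0.0096) above PU.1 cKO cells. Its smaller rise in PU.1 cKO cells, 0.70 (SE 0.20, adjusted p = 0.0532), was lost without control replicate 2 (0.41) and without PU.1 cKO replicate 2 (0.56). Mzb1 stood at 448 and 516 CPM in control libraries, at 604 and 713 without PU.1, at 437 and 488 without SpiB and at 830.4 and 877 without both. Mzb1 rose in DKO cells by 0.90 (SE 0.11, adjusted p = 0.000281), and the PU.1 cKO value of 0.47 (SE 0.11, adjusted p = 0.0195) was under the fold threshold.

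Cebpb and Sdc1 departed from this order. The Cebpb level was 5.47 and 6.12 CPM with both factors, 12.5 and 13.2 in libraries of PU.1 cKO cells, 4.87 and 6.23 with SpiB KO alone and 10.4 and 12.6 with DKO. It rose by 1.16 (SE 0.16) in PU.1 cKO and 1.05 (SE 0.16) in DKO cells, which overlapped each other. Control libraries had 8.21 and 7.5 CPM of Sdc1, PU.1 cKO libraries 7.61 and 7.5, SpiB KO libraries 5.46 and 5.19 and DKO libraries 7.61 and 7.08. Sdc1 in DKO cells differed from control by −0.02, with a 95% interval of −0.30 to 0.26. That interval used a normal quantile, so it is narrower than the few degrees of freedom of the test would give. The CD138+ fraction had been sorted away at every stage, and the part of the sort in this value was not tested.

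**Figure D2:**
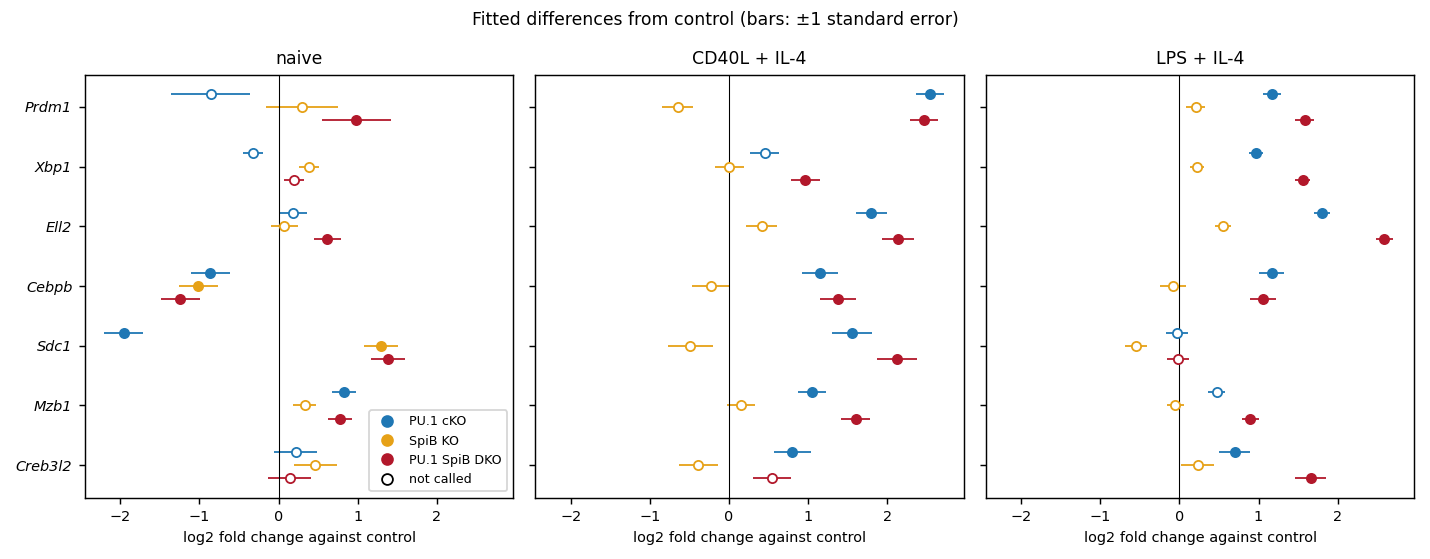
Log2 fold change against control of each gene at the 3 stages, with bars of 1 standard error and 1 colour for each mutant genotype; filled symbols passed adjusted p under 0.15 and a fold over 1.5. In both cultures every filled symbol lies to the right of 0, whereas naive Cebpb in all mutants and naive Sdc1 in PU.1 cKO cells lie to its left.

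With CD40L + IL-4 most members were higher in both genotypes that lacked PU.1. In PU.1 cKO cells 6 of 7 members rose and none fell (13.5% of all genes, 6.27% higher and 7.21% lower), and in DKO cells 6 of 7 rose and none fell (18.3% of all genes, 9.13% higher and 9.2% lower). In SpiB KO cells none was called (0.134% of all genes, 0.0786% higher and 0.055% lower), 1 of the 7 had an unadjusted p under 0.05 and DESeq2 called none. Between DKO and PU.1 cKO cells no member was called (4.06% of all genes, 2.23% higher and 1.83% lower), with 3 of 7 at an unadjusted p under 0.05 and none by DESeq2, while all 7 were higher in DKO than in SpiB KO cells (15.3% of all genes, 8.18% higher and 7.11% lower).

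Prdm1 had the largest difference of the 7 in PU.1 cKO cells. Control libraries had 8.05 and 8.92 CPM of Prdm1, PU.1 cKO libraries 47.9 and 52.5, SpiB KO libraries 4.93 and 5.96 and DKO libraries 44.3 and 49.6. The groups without PU.1 overlapped each other, far above the others. The rises were 2.55 (SE 0.18, edgeR adjusted p = 9.41e-06) and 2.46 (SE 0.18, adjusted p = 1.38e-05), and DKO and PU.1 cKO cells differed by −0.09 (SE 0.16). The Ell2 level was 109.6 and 81.4 CPM with both factors, 356 and 321 in libraries of PU.1 cKO cells, 118 and 139 with SpiB KO alone and 468 and 377 with DKO. Ell2 rose by 1.80 (SE 0.19) and 2.14 (SE 0.20).

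Sdc1 behaved here unlike with LPS + IL-4. Sdc1 stood at 4.15 and 4.1 CPM in control libraries, at 10.4 and 14 without PU.1, at 2.51 and 3.41 without SpiB and at 19.1 and 17.1 without both. It rose without PU.1 by 1.56 (SE 0.25, edgeR adjusted p = 0.00311) and without both factors by 2.12 (SE 0.25, adjusted p = 0.000364). The Mzb1 groups were ordered too, and control libraries had 385 and 527 CPM of Mzb1, PU.1 cKO libraries 886 and 1034, SpiB KO libraries 479.6 and 539.7 and DKO libraries 1391 and 1391. Mzb1 rose by 1.05 (SE 0.18) and 1.60 (SE 0.18), and the step between these groups of 0.55 (SE 0.18, adjusted p = 0.19) did not pass the test although they did not overlap.

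Xbp1 was high in every CD40L + IL-4 library. The Xbp1 level was 779 and 934 CPM with both factors, 1092 and 1290 in libraries of PU.1 cKO cells, 740.3 and 997 with SpiB KO alone and 1603 and 1760 with DKO. It rose in DKO cells by 0.96 (SE 0.19, edgeR adjusted p = 0.00646), while the PU.1 cKO value of 0.45 (SE 0.18, adjusted p = 0.171) missed the threshold. Cebpb stood at 5.25 and 6.46 CPM in control libraries, at 13.5 and 12.9 without PU.1, at 4.93 and 5.11 without SpiB and at 16.8 and 13.7 without both. Cebpb rose by 1.15 (SE 0.22) in PU.1 cKO and 1.38 (SE 0.23) in DKO cells. Control libraries had 8.22 and 6.56 CPM of Creb3l2, PU.1 cKO libraries 11.9 and 14.2, SpiB KO libraries 5.03 and 6.39 and DKO libraries 10.2 and 11.5. Creb3l2 rose in PU.1 cKO cells by 0.80 (SE 0.23, adjusted p = 0.0604), and had 0.54 (SE 0.24, adjusted p = 0.169) in DKO cells. The PU.1 cKO call was lost without control replicate 2 (0.64) and without PU.1 cKO replicate 2 (0.68), and the call between DKO and SpiB KO (0.93, SE 0.24, adjusted p = 0.0357) without SpiB KO replicate 1 (0.77) and without DKO replicate 2 (0.84).

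In naive cells the members moved in different directions. The paper reports that naive DKO cells retained part of the floxed Spi1 exon, so this group was not a complete loss of PU.1. In DKO cells 4 of 7 rose and 1 fell (21.2% of all genes, 12.6% higher and 8.64% lower), in PU.1 cKO cells 1 rose and 2 fell (10.7% of all genes, 4.18% higher and 6.55% lower), and in SpiB KO cells 1 rose and 1 fell (9.62% of all genes, 6.01% higher and 3.62% lower). The DKO call of Prdm1 was lost with DESeq2 and with limma voom, and rested on few reads.

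Sdc1 had the widest range among naive libraries. The Sdc1 level was 19.4 and 11.7 CPM with both factors, 3.74 and 4.26 in libraries of PU.1 cKO cells, 40.5 and 35.3 with SpiB KO alone and 43.4 and 36.8 with DKO. The PU.1 cKO libraries lay below control and all 4 Spib-/- libraries above it, and the Spib-/- genotypes overlapped each other. Sdc1 fell in PU.1 cKO cells (−1.95, SE 0.25, edgeR adjusted p = 0.00171) and rose in SpiB KO cells by 1.29 (SE 0.22, adjusted p = 0.00755) and in DKO cells by 1.38 (SE 0.22, adjusted p = 0.00216). DKO cells stood 3.34 (SE 0.24, adjusted p = 3.36e-05) above PU.1 cKO and 0.09 (SE 0.21) above SpiB KO cells. The DKO value exceeded the sum of the single losses by 2.05 (SE 0.32, adjusted p = 0.0359), and Sdc1 was the 1 member of 7 called in this test of the interaction (0.936% of all genes, 0.456% higher and 0.48% lower). That call was lost without PU.1 cKO replicate 1 (1.96), without PU.1 cKO replicate 2 (2.15) and without SpiB KO replicate 2 (1.95). With the floxed exon partly retained in naive DKO cells, these values do not measure a full loss of both factors. SpiB KO cells also carried no Cre, and its part in the interaction cannot be told apart.

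The naive Spib-/- libraries also held more RNA of genes that mark other cell types. The 14 markers of plasmacytoid dendritic cells (pDC) summed to 849 to 1080 CPM in control, 789.9 to 954 in PU.1 cKO, 3000 to 3628 in SpiB KO and 3787 to 4212 in DKO libraries. Of the 14, 12 were called higher in SpiB KO and 12 in DKO cells, where 6.01% and 12.6% of all genes rose. None of the 14 markers was at 0 in any naive library. Their most abundant were Ly6c2, Plac8 and Bst2, and Siglech, which defines pDC, went from 25 to 62.2 CPM in control to 244 to 281 in DKO libraries. These cells carry B220, for which the sort selected. Control replicate 1, the higher of the pair for Sdc1, was also the higher for the pDC sum, an order of 2 libraries that was not tested. Among the members Prdm1 and Xbp1 had the reverse order in this pair. The PU.1 cKO libraries, with pDC sums that overlapped control, had less Sdc1 than control. The paper proposes that SpiB represses genes of other lineages in B cells, which was not tested here. The 15 macrophage markers summed to 15.8 to 28.6 CPM in control and 81.8 to 81.9 in DKO libraries, of which Cd68 was the most abundant, with Mertk at 0 in 7 of 8 naive libraries. The 12 T cell markers summed to 342 to 435 CPM in control, 363 to 377 in PU.1 cKO, 677 to 778 in SpiB KO and 893 to 895 in DKO libraries, led by Cd2, Cd8a and Lck, with Cd3e at 0.675 CPM or less. The part of such cells in the naive values of the members was not tested. In bulk RNA, fewer cells of a type and less RNA per cell cannot be told apart. In the cultures Siglech was at 0.483 CPM or less in every library and the pDC markers summed to 338 to 579 CPM with CD40L + IL-4 and 235 to 343 with LPS + IL-4.

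**Figure D3:**
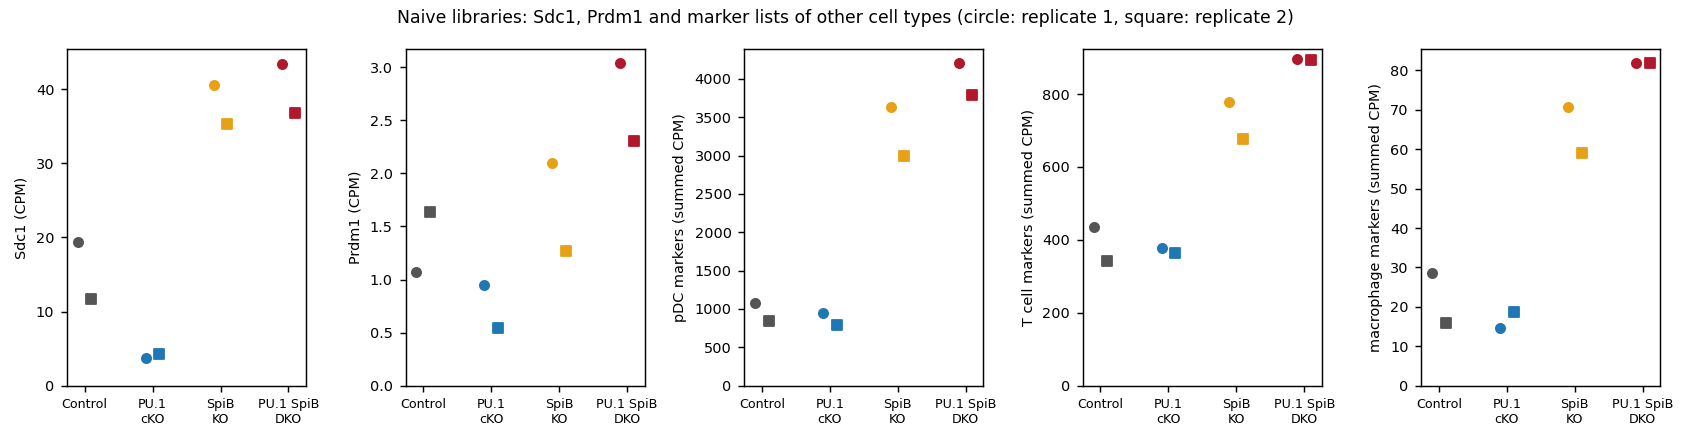
Naive libraries by genotype, with the levels of Sdc1 and Prdm1 in CPM and the summed CPM of pDC, T cell and macrophage markers on axes from 0, and 1 symbol for each replicate. Sdc1 and the 3 sums are highest in the 4 Spib-/- libraries, and Sdc1 is lowest in both PU.1 cKO libraries.

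Cebpb fell in all 3 mutant genotypes of naive cells. Control libraries had 15.8 and 15.3 CPM of Cebpb, PU.1 cKO libraries 6.33 and 10.8, SpiB KO libraries 7.17 and 8.22 and DKO libraries 6.47 and 6.63. Every mutant library lay below both control libraries. The changes were −0.87 (SE 0.25, edgeR adjusted p = 0.0678) for PU.1 cKO cells, −1.02 (SE 0.25, adjusted p = 0.0463) with SpiB lost and −1.24 (SE 0.25, adjusted p = 0.00792) in DKO cells. The PU.1 cKO call was lost without PU.1 cKO replicate 1 (−0.53) and without control replicate 2 (−0.86), and the SpiB KO call without SpiB KO replicate 1 (−0.92).

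Mzb1 rose in naive cells of both genotypes with Cre and floxed Spi1. The Mzb1 level was 415 and 342 CPM with both factors, 683 and 659 in libraries of PU.1 cKO cells, 517 and 432 with SpiB KO alone and 719 and 569 with DKO. The rises were 0.82 (SE 0.15, edgeR adjusted p = 0.0117) and 0.78 (SE 0.15, adjusted p = 0.00641). Ell2 stood at 32.5 and 31.8 CPM in control libraries, at 31.8 and 41.5 without PU.1, at 29.4 and 38.2 without SpiB and at 46.9 and 51.3 in DKO libraries. Ell2 rose in DKO cells by 0.62 (SE 0.17, adjusted p = 0.0334), and the value without DKO replicate 2 was 0.54, under the fold threshold.

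Prdm1 was close to the limit of counting in naive cells, with 14 and 22 reads in the control pair, 14 and 8 in PU.1 cKO libraries, 33 and 22 in those of SpiB KO and 47 and 41 in DKO libraries. Control libraries had 1.07 and 1.64 CPM of Prdm1, PU.1 cKO libraries 0.953 and 0.542, SpiB KO libraries 2.09 and 1.26 and DKO libraries 3.04 and 2.31. The DKO libraries were the highest and did not overlap any other group. The DKO value against control was 0.98 (SE 0.44, edgeR adjusted p = 0.146), and leaving out any 1 of the 4 libraries ended the call (0.67 and 1.35 without control replicates 1 and 2, 0.76 and 1.16 without DKO replicates 1 and 2). The call was also lost with DESeq2 (0.97, adjusted p = 0.312), with limma voom (0.52, adjusted p = 0.431) and with a mean log2 RPKM above 0. Against PU.1 cKO cells it was 1.84 (SE 0.47, adjusted p = 0.0336), a call lost without DKO replicate 1 (1.62) and without PU.1 cKO replicate 2 (1.49). Prdm1 and Sdc1 were the 2 of 7 members called higher in DKO than in PU.1 cKO cells (12.9% of all genes, 9.91% higher and 3% lower). Between DKO and SpiB KO cells none was called (3.03% of all genes, 1.7% higher and 1.34% lower), 2 of the 7 had an unadjusted p under 0.05 and DESeq2 called none.

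Xbp1 and Creb3l2 were called against control in no naive genotype. Xbp1 stood at 207 and 210.2 CPM in control libraries, at 171 and 164 without PU.1, at 289 and 254 without SpiB and at 262 and 214 in DKO libraries. The PU.1 cKO libraries were the lowest, and DKO exceeded PU.1 cKO cells by 0.52 (SE 0.13, edgeR adjusted p = 0.0272), under the fold threshold. Control libraries had 8 and 6.1 CPM of Creb3l2, PU.1 cKO libraries 7.96 and 8.46, SpiB KO libraries 12.2 and 7.24 and DKO libraries 8.09 and 7.31. Each mutant group overlapped control for Creb3l2.

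The DKO effect on the members changed with stage. By a test of the difference between stages in all 24 libraries, with adjusted p alone, it differed for 6 of 7 members between CD40L + IL-4 and naive cells (16.8% of all genes), for 5 between LPS + IL-4 and naive cells (29.6%) and for 5 between the cultures (28.6%). Xbp1, Ell2 and Cebpb had higher DKO effects in both cultures than in naive cells. With CD40L + IL-4 the differences were 0.78 (SE 0.21, edgeR adjusted p = 0.0192), 1.53 (SE 0.24, adjusted p = 0.000216) and 2.64 (SE 0.32, adjusted p = 1.57e-05). For Sdc1 the DKO effect with LPS + IL-4 minus that with CD40L + IL-4 was −2.22 (SE 0.31, adjusted p = 0.000265). The stage comparisons share groups and are not independent of each other. By the paper's account Spi1 deletion was incomplete in naive DKO cells, and its part in the differences from naive cells was not tested.

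The step from a single loss to the loss of both factors was tested on its own. SpiB KO cells lacked the Cre transgene that the other genotypes carried. The part of Cre in comparisons with SpiB KO cells and in the interaction cannot be told apart. With LPS + IL-4, Ell2, Creb3l2 and Xbp1, 3 of 7 members, were called higher in DKO than in PU.1 cKO cells (12.6% of all genes, 9.12% higher and 3.48% lower), and all members but Sdc1, 6 of 7, were higher in DKO than in SpiB KO cells (12.8% of all genes, 8.64% higher and 4.12% lower). The DKO value departed from the sum of the single losses for no member with CD40L + IL-4 (1.17% of all genes, 0.542% higher and 0.629% lower), where 2 of 7 had an unadjusted p under 0.05 and DESeq2 called none. With LPS + IL-4 it did so for none in the fit without pairing (1.48% of all genes, 0.683% higher and 0.796% lower), where 4 had an unadjusted p under 0.05. DESeq2 called 1, Mzb1. There the replicate numbers paired the libraries, and with the number as a block 3 members were called, Xbp1 (0.37, edgeR adjusted p = 0.0671), Sdc1 (0.57, adjusted p = 0.14) and Mzb1 (0.49, adjusted p = 0.0217), beside 10.3% of all genes. All 3 values were above 0.

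Other plasma cell genes rose in the same cultures. Of 22 listed genes without the 7 members, 14 of 21 tested rose and 0 fell in DKO cells with LPS + IL-4 (median 0.98), 13 of 22 rose and 0 fell with CD40L + IL-4 (median 0.83), and 10 of 21 rose and 3 fell in naive cells (median 0.70), beside medians of 0.01, 0.00 and 0.00 for all genes. Of all genes tested, 13.7%, 9.13% and 12.6% rose in these comparisons, and 6.52%, 9.2% and 8.64% fell. With LPS + IL-4 the largest changes were in Cd28, a costimulatory receptor (0.836 to 1.87 CPM in control and 27.9 to 29.4 in DKO libraries; 4.60, SE 0.32), Hid1, a protein of secretory granule formation (3.74, SE 0.26), and Igj, the joining chain of secreted antibody (3.05, SE 0.25). With CD40L + IL-4 they were in the homing receptor Ccr10 (5.92, SE 0.63), Hid1 (5.57, SE 0.35) and Bhlha15, the secretory cell factor MIST1 (3.48 to 5.25 CPM in control and 47 to 48.9 in DKO libraries; 3.43, SE 0.38). In naive cells they were in Ly6c2 (4.33, SE 0.28), Hid1 (3.75, SE 0.38) and Cd28 (3.46, SE 0.27), of which Ly6c2 is also on the pDC list, and the 3 genes that fell there were Cxcr4, Zbtb20 and Glcci1. In PU.1 cKO cells 12 rose and 1 fell with LPS + IL-4 and 14 rose and 1 fell with CD40L + IL-4, where 6.68% and 6.27% of all genes rose. With 1 library left out, the DKO counts of rises were 13 to 15 with LPS + IL-4, 12 to 13 with CD40L + IL-4 and 8 to 11 in naive cells. In SpiB KO cells 4 rose with LPS + IL-4 and 0 with CD40L + IL-4, beside 2.25% and 0.0786% of all genes. The former count was 2 without SpiB KO replicate 1, 2 without SpiB KO replicate 2 and 1 without control replicate 2.

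The IRE1-XBP1 pathway, which splices the Xbp1 messenger and drives chaperones and translocation factors of the endoplasmic reticulum, had its highest count of calls in DKO cells with CD40L + IL-4. There 20 of 28 genes rose and 0 fell (median 0.77; 16 to 21 with 1 library left out), and in PU.1 cKO cells 9 rose (median 0.45), where 9.13% and 6.27% of all genes rose. The PU.1 cKO count became 4 without control replicate 1 and 1 without PU.1 cKO replicate 2, the deepest library of that stage. The largest DKO changes were in the chaperone-associated gene Creld2 (84.7 to 96.9 CPM in control and 233 to 238 in DKO libraries; 1.37, SE 0.21), the co-chaperone Dnajb9 (1.27, SE 0.22) and Manf (1.12, SE 0.22). With LPS + IL-4, 8 of 28 rose in DKO cells (median 0.45; 7 to 11 with 1 library left out) and 0 in PU.1 cKO cells (median 0.32), led by Ero1lb (0.94, SE 0.10), Dnajb9 (23.1 to 25.3 CPM in control and 43.3 to 44.8 in DKO libraries; 0.93, SE 0.11) and the disulphide isomerase Pdia4 (0.81, SE 0.08). Of all genes 13.7% rose in DKO and 6.68% in PU.1 cKO cells of that culture. In naive DKO cells 2 of 28 rose, a smaller share than the 12.6% of all genes, namely Ern1, the kinase and RNase that splices Xbp1 (1.05, SE 0.26), and Edem2 (0.66, SE 0.11).

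**Figure D4:**
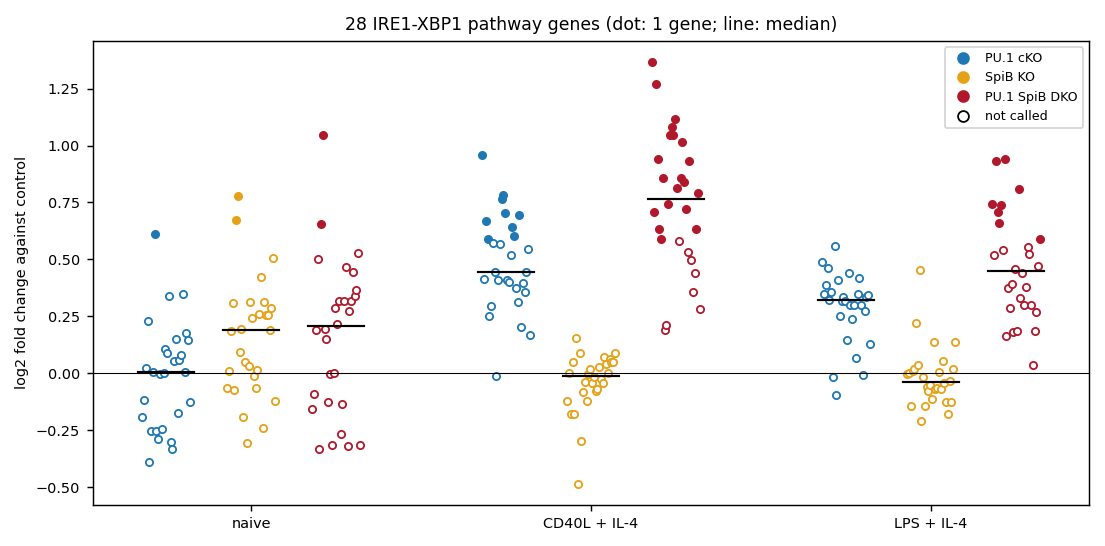
Log2 fold change against control of the 28 genes of the IRE1-XBP1 pathway at 3 stages in PU.1 cKO, SpiB KO and DKO cells, with 1 dot for each gene, filled where called, and a line at the median. The DKO dots with CD40L + IL-4 lie highest, with a median of 0.77 and 20 filled.

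B cell regulators that oppose the plasma cell fate fell in DKO cells with CD40L + IL-4 in 6 of 9, where 9.2% of all genes fell. Of the 6, Spib and Spi1 were the deleted genes. The others were Bcl6, the repressor of germinal centre cells (−1.22, SE 0.42), Bach2, a repressor of Prdm1 (116 to 154 CPM in control and 63.3 to 76.5 in DKO libraries; −0.96, SE 0.20), and the B cell identity factors Pax5 (−0.94, SE 0.19) and Ebf1 (−0.87, SE 0.25). With LPS + IL-4 the 1 that fell was Spib, and Ets1 (1.46, SE 0.13) and Irf8 (0.66, SE 0.09) rose. In naive DKO cells Bcl6 (95 to 118 CPM in control and 29.5 to 34.4 in DKO libraries; −1.73, SE 0.16) and Bach2 (−0.71, SE 0.14) fell beside the deleted genes, and Irf8 rose (0.84, SE 0.10). Without DKO replicate 1 or without control replicate 2 the naive count of 4 became 2 and the LPS + IL-4 count of 1 became 2. In naive PU.1 cKO cells Bcl6 was at 29.3 to 29.8 CPM (−1.86, SE 0.16).

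Relatives of the members were set beside the DKO shares of all genes called, which were 13.7% higher and 6.52% lower with LPS + IL-4, 9.13% and 9.2% with CD40L + IL-4 and 12.6% and 8.64% in naive cells. Among ELL proteins and partners of the super elongation complex, 1 of 13 rose and 1 fell with LPS + IL-4, 1 of 13 rose and 2 fell with CD40L + IL-4 and 0 of 13 rose and 1 fell in naive cells. In DKO cells Eaf2, which is also on the plasma cell list, rose (1.71, SE 0.16) and Zc3h8 fell (−0.79, SE 0.15) with LPS + IL-4. With CD40L + IL-4 Mllt3 rose (1.11, SE 0.18) and Aff1 (−0.85, SE 0.27) and Aff4 (−0.70, SE 0.24) fell, and in naive cells Aff4 fell (−1.0, SE 0.17). In the C/EBP family and its dimer partners 1 of 7 rose and 1 fell with LPS + IL-4, 2 of 7 rose and 0 fell with CD40L + IL-4 and 2 of 8 rose and 0 fell in naive cells. The naive DKO cells had more Cebpa (0.966 to 1.52 CPM in control, 10.4 to 14.7 in SpiB KO and 13.4 to 16.2 in DKO libraries; 3.58, SE 0.32) and Cebpd (2.51, SE 0.39), opposite in direction to Cebpb and together with the pDC markers. Cebpd (2.38, SE 0.74) and Batf (0.94, SE 0.22) rose with CD40L + IL-4. With LPS + IL-4 Ddit3 rose (0.66, SE 0.26) and Atf3 fell (−2.06, SE 0.20). Of 6 tested genes of the CREB3 family and its site proteases only Creb3l1 was called in DKO cells, with LPS + IL-4 (1.60, SE 0.56), at under 1 CPM in every library. Among syndecans and heparan sulphate enzymes without Sdc1, 3 of 12 rose and 2 fell with LPS + IL-4, 1 of 12 rose and 3 fell with CD40L + IL-4 and 3 of 13 rose and 1 fell in naive cells. With LPS + IL-4 Sdc3 (−2.25, SE 0.20) and Ext1 (−0.81, SE 0.14) fell, and the xylosyltransferase Xylt2 (0.82, SE 0.16), Ndst1 (0.69, SE 0.09) and Glce (0.65, SE 0.09) rose. With CD40L + IL-4 Xylt1 (−1.85, SE 0.25), Sdc3 (−1.23, SE 0.34) and Sdc4 (−0.76, SE 0.16) fell and Xylt2 rose (0.89, SE 0.20). In naive DKO cells Sdc2 (1.84, SE 0.50), Glce (0.73, SE 0.17) and Ext1 (0.65, SE 0.22) rose and Xylt1 fell (−0.86, SE 0.17).

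Over the 24 libraries, with the mean of each stage taken out, the genes with log2 levels most like a member by Pearson's r included Txndc11 (r = 0.93) and Sec24d (0.911) for Prdm1, C1qtnf6 (r = 0.931) and Rap1a (0.902) for Xbp1, Ighv1-74 (r = 0.941) and Trib2 (0.941) for Ell2, Ighv5-4 (r = 0.915) and Sel1l (0.911) for Cebpb, Nek6 (r = 0.91) for Sdc1, 0610011F06Rik (r = 0.95) and Derl3 (0.942) for Mzb1 and Cradd (r = 0.888) and Klhdc2 (0.87) for Creb3l2. This search covered 11581 genes, and the libraries share genotypes and scaling, so the values are a description. Ighv1-74 and Ighv5-4 are heavy chain variable segments with near-identical copies, and their counts are uncertain.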

How the data were processed

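RNA-seq of 24 lymph node B cell libraries was analysed from the deposited files. The authors aligned reads with Subread to GRCm38 (mm10), retained reads with a unique position, summarized them per RefSeq gene with featureCounts (exons only), and deposited integer counts for 27179 genes. The authors also deposited log2 RPKM values, quantile normalized with limma, with another set of genes for LPS + IL-4 than for the other stages. Of the counts, 0.162% were in 517 entries without a symbol, which stayed in the fits. The members and gene lists were chosen with earlier results of these data known, so they are no independent support.

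The 8 libraries of a stage were fitted together with edgeR 4.0.16 (R 4.3.3, quasi-likelihood test, TMM) after a filter of 0.5 CPM in 2 libraries. A gene was called at a Benjamini-Hochberg adjusted p under 0.15 over all genes and a fold over 1.5, and an interaction or stage difference at adjusted p alone. A fit of all 24 libraries gave the stage comparisons. SE is the log2 fold change over the root of the F statistic. limma 3.58.1 (voom) and DESeq2 1.42.0 served as alternatives. The script was tested on simulated data.

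Replicate numbers came from the labels. Deviations of same-numbered libraries from their group means correlated at 0.386 to 0.514 with LPS + IL-4 in all 6 pairs of groups, which paired those libraries. No replicates were identical or within sampling noise. All comparisons with control in a stage share 2 control libraries. Named were the 7 members, Spi1 and Spib, up to 3 genes a list with the largest called DKO change, the 3 most abundant genes of a marker list and the 2 genes most like each member, of which 1 is not reported here. Siglech, Cd3e, Mertk, Bcl6 in PU.1 cKO cells and the genes behind counts of 6 or fewer were named after their values were seen. Sequences were RefSeq promoters.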

Additional observations from a re-analysis of the deposited data

Results flagged for a closer look

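Several effects of genotype on the members differed between stages by a test of the difference itself (edgeR's quasi-likelihood test in all 24 libraries, adjusted p under 0.15). Differences are on the log2 scale, each as the effect against control in the first stage minus that in the second. Naive DKO cells retained part of the floxed Spi1 exon by the paper's account, and the part of this in the differences was not tested.

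The DKO effect was higher with CD40L + IL-4 than in naive cells for Prdm1 by 1.5 (adjusted p = 0.00836), Xbp1 by 0.78 (adjusted p = 0.0192), Ell2 by 1.53 (adjusted p = 0.000216), Cebpb by 2.64 (adjusted p = 1.57e-05), Sdc1 by 0.76 (adjusted p = 0.139) and Mzb1 by 0.84 (adjusted p = 0.0218). Of all genes tested in this comparison the share called was 16.8%, 7.16% higher and 9.62% lower. For Cebpb the effect was called in opposite directions in the stages, lower in naive and higher in activated cells. The Sdc1 difference held in 2 of 8 fits without 1 library (0.35 to 1.08), and was 0.35 without naive control replicate 1.

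Against naive cells, the DKO effect with LPS + IL-4 was higher for Xbp1 by 1.30 (adjusted p = 0.000291), Ell2 by 1.91 (adjusted p = 2.55e-05), Cebpb by 2.23 (adjusted p = 5.61e-05) and Creb3l2 by 1.45 (adjusted p = 0.00645), and for Sdc1 it was lower (−1.46, adjusted p = 0.00155). Of all genes 29.6% were called, 13.5% higher and 16% lower.

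Between the cultures, the DKO effect with LPS + IL-4 minus that with CD40L + IL-4 was below 0 for Prdm1 (−0.96, adjusted p = 0.0148), Sdc1 (−2.22, adjusted p = 0.000265) and Mzb1 (−0.78, adjusted p = 0.0255). It was above 0 for Xbp1 (0.51, adjusted p = 0.0992) and Creb3l2 (1.03, adjusted p = 0.0487). Of all genes 28.6% were called, 13.6% higher and 15% lower. Without 1 library the Xbp1 difference held in 3 of 8 fits (0.38 to 0.63) and the Creb3l2 difference in 6 of 8, being 0.85 without CD40L + IL-4 control replicate 1 and 0.77 without LPS + IL-4 control replicate 2.

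For the loss of PU.1 alone, a difference between stages was examined after the values were seen, where a member had been called in opposite directions. That choice made a difference likely in advance, so these tests add no support. It also left out members such as Prdm1, with 3.42 between CD40L + IL-4 and naive cells. The PU.1 cKO effect was higher with CD40L + IL-4 than in naive cells for Cebpb (2.03, adjusted p = 0.00112) and Sdc1 (3.55, adjusted p = 6.99e-06), where 9.05% of all genes were called, 4.74% higher and 4.3% lower. With LPS + IL-4 it was higher than in naive cells for Cebpb (2.00, adjusted p = 0.00146), beside 6.34% of all genes, 3.81% higher and 2.53% lower. The part of other cell types in the naive libraries in these differences was not tested.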

How the results depend on the processing

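The alternatives were DESeq2's size factors in edgeR, no filter on low counts, DESeq2, voom with quantile normalization, a replicate block, an adjusted p under 0.05, a mean log2 RPKM above 0, all 24 libraries in the fit, only the groups compared, and each library left out in turn. For the stage differences, the adjusted p of 0.05 and the fits without 1 library were added after seeing the data. Of 83 differences of members that were called, 14 lost the call under at least 1 alternative and 0 reversed. Of 70 that were called nowhere, 25 changed sign somewhere, with values from −0.21 to 0.15 there. Of 126 counts over gene lists, 55 moved by more than 1.5 times somewhere.

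The number of members called between DKO and PU.1 cKO naive cells was 2, and 1 with a mean log2 RPKM above 0. The interaction in naive cells was called for 1 member, for 2 with the replicate block and for 2 with all 24 libraries in the fit. With LPS + IL-4, 1 member was called in SpiB KO cells by voom against none (Sdc1, −0.60, limma adjusted p = 0.0645), and the interaction was called for 1 member with no filter, by DESeq2 and by voom and for 3 with the replicate block. The replicate block changed no other call of a member except that it added Ell2 between the cultures in control cells (−0.61), as did DESeq2's size factors. Naive Prdm1 in DKO cells lost its call with DESeq2 (0.97, adjusted p = 0.312), voom (0.52, adjusted p = 0.431) and only the groups compared (0.97, adjusted p = 0.178), with a mean log2 RPKM above 0 and at an adjusted p under 0.05 (edgeR adjusted p = 0.146). The causes were not tested. Replicate numbers paired the libraries with LPS + IL-4 and were not shown to do so in naive cells (5 of 6 pairs of groups correlated above 0.1) or with CD40L + IL-4 (4 of 6).

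With 1 library left out, the members called in naive cells numbered 1 to 2 in SpiB KO against control, 3 to 4 in DKO against control, 1 to 3 in DKO against PU.1 cKO and 0 to 1 in the interaction. With LPS + IL-4 the interaction numbered 0 to 1, the 1 without control replicate 2, and the DKO effect differed between the cultures for 3 to 5 members, the 3 without LPS + IL-4 control replicate 2. The naive Cebpb difference between DKO and PU.1 cKO cells was −0.71 without PU.1 cKO replicate 1 and 0.0654 without PU.1 cKO replicate 2, so its direction rests on 1 library. Depth limits the naive Prdm1 values, at 8 to 47 reads a library. With 2 libraries a group, an exact permutation test of 1 gene cannot give a p below 0.333.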

Other observations

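In naive cells the 11 marginal zone and B-1 cell markers summed to 796 to 997 CPM in control, 806 to 903 in PU.1 cKO, 859.8 to 992 in SpiB KO and 1000 to 1112 in DKO libraries, led by Cr2, Dtx1 and Cd1d1. Of the 10 tested, 8 rose and 0 fell in DKO cells, 3 rose and 2 fell in PU.1 cKO cells and 4 rose and 0 fell in SpiB KO cells, where 12.6%, 4.18% and 6.01% of all genes rose. The 2 that fell in PU.1 cKO cells were Cd5 and S1pr3. The 8 B cell markers, all detected in every library, summed to 12667 to 12684 CPM in naive control, 11886 to 12215 in PU.1 cKO, 10973 to 10977 in SpiB KO and 9478 to 9897 in DKO libraries, led by Cd79a, Cd79b and Ms4a1. In naive DKO cells 2 of 8 fell, where 8.64% of all genes fell. In DKO cells with CD40L + IL-4, 4 of 8 fell and 0 rose, where 9.2% of all genes fell. With LPS + IL-4 the direction was the other, as 3 of 8 rose and 0 fell, where 13.7% of all genes rose.

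The 8 plasma cell markers with none of the members summed to 339 to 353 CPM in control, 555 to 575 in PU.1 cKO, 376 to 389 in SpiB KO and 585 to 652 in DKO libraries with LPS + IL-4, led by Txndc5, Slamf7 and Bhlha15. With CD40L + IL-4 these sums were 543 to 588, 846 to 863, 549 to 609 and 906 to 989.5 CPM, and in naive cells, where Ly6c2 led them, 445 to 522, 695 to 728, 1230 to 1481 and 1579 to 1799 CPM. Of the tested markers, 6 of 7 rose in DKO cells with LPS + IL-4, 5 of 8 with CD40L + IL-4 and 4 of 7 in naive cells. Of all genes tested, 13.7%, 9.13% and 12.6% rose in these comparisons. Bhlha15 and Ly6c2 are also among the other plasma cell genes counted above, so the lists are not independent. With CD40L + IL-4 the macrophage markers summed to 42.9 to 58.3 CPM in control, 9.06 to 10.2 in PU.1 cKO, 39.9 to 58.4 in SpiB KO and 8.68 to 11.8 in DKO libraries, led by Emr1, Cd68 and Itgam. With LPS + IL-4 these sums were 11.6 to 18.0, 3.59 to 5.88, 20.4 to 22.9 and 5.78 to 6.90 CPM.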
